A study of Drosophila melanogaster with 6 samples.

Results

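The genes described here are the long noncoding RNA genes and antisense RNA genes whose transcript level differed between neural cells with a knockdown of domino (dom) and wild type cells of the Drosophila melanogaster larval brain. They were chosen by name alone, as every gene in the table of the authors' comparison whose current symbol starts with lncRNA: or asRNA:. There were 214 such genes among the 3326 genes listed, 176 with the first prefix and 38 with the second. RNA was sequenced from live GFP-positive cells sorted from brains of wandering larvae, in 3 libraries for each genotype. The knockdown larvae carried UAS::dom-RNAi together with UAS::Dcr-2, insc::Gal4 and UAS::CD8-GFP. The wild type larvae came from w1118 males and the same driver females, so they also carried UAS::Dcr-2, which strengthens RNA interference, and the GFP reporter. The insc driver works in neuroblasts, which are brain stem cells, and GFP that persists in their progeny can bring daughter cells into the sort. Whether the 3 sorts of a genotype used different larvae is not stated, and the p-values may cover technical spread only.

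Domino is the ATP-dependent remodeller of the fly Tip60 complex, which acetylates histones and exchanges the histone variant H2Av at promoters and other sites. Long noncoding RNAs are transcripts with no long reading frame. Some act as RNAs, such as roX1 and roX2 on the male X chromosome, some are precursors that are cut into small RNAs, and for many no role is known. An antisense RNA is transcribed from the strand opposite to another gene, and the genes named asRNA: overlap such a gene. Many noncoding genes start close to, or lie within, a protein-coding gene, so the positions of many named genes are given with their values.

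The table held, for each listed gene, a mean normalized count over all libraries, a log2 ratio with its standard error, and p-values from DESeq2, a negative binomial test of counts. It held no value per library, so the depth of each library and the overlap of the groups are unknown. Only genes with an adjusted p below 0.05 were listed, 28% of the 11859 genes behind the adjustment. Genes outside the list did not pass or were not tested, and nothing is known of their ratios. The header names the control first, and dom was lower in the knockdown under that reading, at a log2 ratio of -0.58 (SE 0.11, DESeq2 adjusted p 7.88e-07) per the authors' deposited table. Dcr-2, carried as a transgene by both genotypes, was higher at 0.90 (SE 0.23), and the gene w was higher at 1.32 (SE 0.13). No RNAi transgene is named for the wild type larvae. Effects of that transgene, of strain background and of the knockdown thus cannot be told apart. All ratios are given here as knockdown over wild type. If the header order were the reverse, every direction would swap. Fold changes and intervals below were computed from the authors' log2 ratios and standard errors.

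Most of the listed noncoding genes were higher in the dom knockdown. Of the 214 genes, 166 were higher (77.6%) and 48 lower, while 49.5% of all 3326 listed genes were higher. Higher genes were 13.9% and lower genes 14.2% of all genes tested. Of the 2450 annotated genes with these prefixes 8.73% were listed, against 21.45% of the 13986 annotated protein-coding genes, but how many noncoding genes entered the test is unknown. The changes were often large, with 122 genes at least 2-fold higher and 26 at least 2-fold lower, or 69.2% of the 214, against 29.9% of all listed genes. In all genes tested, those at least 2-fold higher made up 6.38% and those at least 2-fold lower 2.02%. The median log2 ratio was 1.18 over the 214 noncoding genes and -0.20 over all listed genes. In sorted bulk cells, a change in the number of cells that express a gene and a change in the RNA of each cell cannot be told apart.

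**Figure D1:**
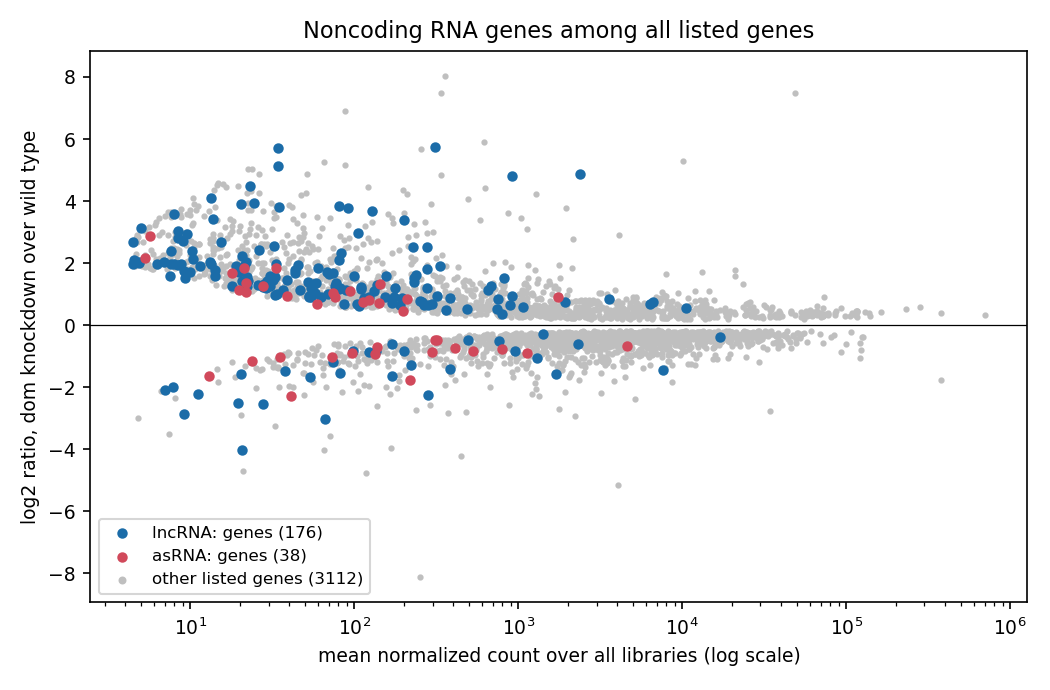
Log2 ratio of dom knockdown over wild type against the mean normalized count over all libraries (log scale) for every listed gene, with 176 lncRNA: genes in blue, 38 asRNA: genes in red and 3112 other listed genes in grey. Most noncoding points lie above 0 and at low counts; the empty band around 0 comes from the threshold, which leaves out genes with small ratios for their error.

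The split was less one-sided in antisense genes. Of the 176 lncRNA: genes 145 were higher and 31 lower, with a median log2 ratio of 1.27, and of the 38 asRNA: genes 21 were higher and 17 lower, with a median of 0.69. The difference between the 2 kinds was not tested. Their median mean normalized counts were 64.3 for lncRNA: genes and 95.7 for asRNA: genes, per the authors' deposited table.

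Noncoding transcripts were rare, and direction moved with abundance. Their median mean normalized count was 71.6, against 1777 for other listed genes. Among noncoding genes with a mean under 10, 24 of 27 were higher, and among those from 10 to 50, 54 of 64 were. The share then fell through the higher classes, to 29 of 36 genes from 50 to 100, 42 of 58 from 100 to 500, 12 of 20 from 500 to 2000 and 5 of 9 at 2000 and more. Other listed genes of the same classes were higher in 95.1% of cases below 10, 88.3% from 10 to 50, 76.4% from 50 to 100 and 69.0% from 100 to 500. Up to a mean of 500 the noncoding share was thus near that of other genes, lower than it below 50 and higher from 50 to 500. The widest of these gaps was below 10, at 88.9% of noncoding and 95.1% of other genes. From 500 to 2000 the shares were 60.0% of noncoding and 44.0% of other genes, and at 2000 and more 55.6% and 28.3%, on only 20 and 9 noncoding genes. The threshold also sets how small a listed change can be. The smallest log2 change of a noncoding gene was 1.52 with a mean under 10, where the median standard error was 0.71, and 0.39 at 2000 and more, where it was 0.17. A rare gene could thus be listed only with a large ratio.

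**Figure D2:**
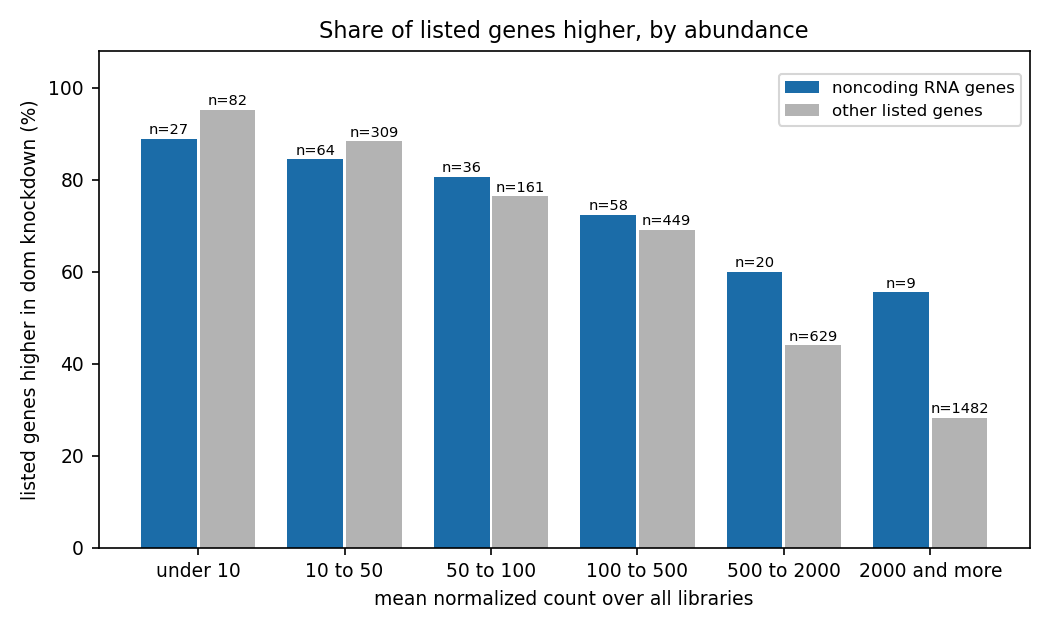
Percent of listed genes that were higher in the dom knockdown in 6 classes of mean normalized count, with noncoding RNA genes in blue and other listed genes in grey; n is the number of listed genes in the class. The blue and grey bars are close up to a count of 500, and in the 2 highest classes the blue bars stand at 60.0% and 55.6% and the grey bars at 44.0% and 28.3%.

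The most strongly raised noncoding transcript was lncRNA:CR45517 (FBgn0267073, dm6 X:5428483-5429256, plus strand, a single intergenic exon). It was 53.3-fold higher in the knockdown, with a log2 ratio of 5.74 (SE 0.29, DESeq2 adjusted p 9.14e-85) at a mean normalized count of 309.9 per the authors' deposited table. It lies 315 bp from CG15784, on the same strand, whose own log2 ratio was 5.28 (SE 0.63). lncRNA:CR42646 (FBgn0261429, 2R:5363253-5367357, 8 exons) had the highest count of the strongly raised genes, 2365, and was 29.1-fold higher (log2 4.86, SE 0.25) per the authors' deposited table. Its start is 149 bp from that of CG10417 on the opposite strand, which moved by only 0.34 (SE 0.07) on the log2 scale. lncRNA:CR45973 (FBgn0267635, 3L:20404270-20407558) was 27.8-fold higher (log2 4.80, SE 0.25) at a mean normalized count of 917.5 per the authors' deposited table. It shares 13.9% of its exon bases with CG13248, which was not listed, and lies 2661 bp from trbl, which encodes a Tribbles pseudokinase and was higher at a log2 ratio of 1.27.

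Further genes past a mean normalized count of 50 were strongly raised. lncRNA:CR44111, in an intron of the diacylglycerol kinase gene rdgA, and lncRNA:CR44809, whose start is 525 bp from that of Clamp, had log2 ratios of 3.84 (SE 0.34) and 3.77 (SE 0.35) per the authors' deposited table. Neither rdgA nor Clamp, which encodes a zinc finger protein that recruits the dosage compensation complex, was listed. lncRNA:CR43765, which starts 203 bp from Nubpl, had 3.69 (SE 0.29), while Nubpl itself had 0.45 (SE 0.08) per the authors' deposited table. lncRNA:CR32658, lncRNA:CR43461, lncRNA:CR43144 and lncRNA:CR45177 followed at log2 ratios of 2.97, 2.51, 2.51 and 2.32, with standard errors from 0.27 to 0.39. In total 18 noncoding genes were at least 8-fold higher, 11 of them with a mean normalized count under 50.

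Some of the rarer raised genes lay next to a gene that was itself higher, and 5 are given here with that gene. Of these, lncRNA:CR44781 and lncRNA:CR43942 were chosen after their values were seen. lncRNA:CR44522 (3L:6263008-6263399), 314 bp from the lactate dehydrogenase gene Ldh on the same strand, had a log2 ratio of 5.70 (SE 0.66) at a mean normalized count of 34.4 per the authors' deposited table. Ldh itself had 2.79 (SE 0.20) at a mean normalized count of 2145. lncRNA:CR44781, 4808 bp from the gustatory receptor gene Gr59d, had 5.13 (SE 0.60), and Gr59d had 6.91 (SE 0.61) per the authors' deposited table. lncRNA:CR43941 and lncRNA:CR43942 both lie in introns of CG40470 and had log2 ratios of 3.94 and 4.11, and CG40470 had 2.52. lncRNA:CR45220 lies in an intron of Pzl, a gene named for a Piezo-like channel, and the log2 ratios were 3.59 (SE 0.76) for the noncoding gene and 4.85 (SE 0.25) for Pzl per the authors' deposited table. Of the 18 genes at least 8-fold higher, 12 had another listed gene that overlapped them or lay within 10 kb. That gene was higher for 9 and lower for 3, and at least 4-fold higher for 6. The other 6 of the 18 had no listed gene within 10 kb. Such a gene was also higher for 95 of the 122 higher noncoding genes that had one, a share close to 9 of 12. For other higher listed genes it was 59.8%. Of all 3326 listed genes, 308 were at least 4-fold higher. These differences were not tested.

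Few noncoding genes fell strongly. Of the genes past a mean normalized count of 50, lncRNA:CR43907 (FBgn0264508, 2R:11616195-11616694) was lowest, at 0.124 times the wild type level (log2 -3.01, SE 0.41, DESeq2 adjusted p 5.32e-12) per the authors' deposited table. Its start is 150 bp from that of tou, a chromatin protein gene, which fell by 0.25 (SE 0.07) on the log2 scale. lncRNA:CR45758, an intergenic gene on 3L, had a log2 ratio of -2.26 (SE 0.18), and lncRNA:CR45473 (X:140722-142197), the most precisely measured of the strongly lowered genes, had -1.59 (SE 0.11) at a mean normalized count of 1702 per the authors' deposited table. lncRNA:CR45473 shares 24.5% of its exon bases with tyn, which was not listed. lncRNA:CR32111 (3L:12627934-12648280) was lower at -1.06 (SE 0.19), and caup, an Iroquois homeodomain gene 6136 bp away, at -1.46 (SE 0.19) per the authors' deposited table. Among rarer genes, lncRNA:CR43263 had the lowest ratio of all 214, -4.04 (SE 0.63), where the mean normalized count was 20.6, and CG42329, 1508 bp away, had -3.59 (SE 0.38). These 2 genes were chosen after their values were seen.

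Of the 10 most abundant listed noncoding transcripts, all but lncRNA:CR42646 had log2 ratios between -1.46 and 0.85. lncRNA:mimi (FBgn0051451, 3R:23983503-23985065) had the highest mean normalized count, 17098, and was slightly lower (log2 -0.39, SE 0.16, DESeq2 adjusted p 0.0467) per the authors' deposited table. It lies 271 bp from CG31140 on the same strand, which was lower at -0.53 (SE 0.18). The next in order, lncRNA:CR46006, was higher at 0.54 and lncRNA:CR44024 lower at -1.46 on the log2 scale, at mean normalized counts of 10485 and 7633. lncRNA:CR34335 and lncRNA:CR30009 had mean normalized counts of 6605 and 6394 and log2 ratios of 0.74 (SE 0.21) and 0.69 (SE 0.17) per the authors' deposited table. Per kilobase of exon, lncRNA:CR34335, with a short single exon in an intron of DIP-alpha, had the highest level of these, 18296 normalized counts, against 10939 for lncRNA:mimi and 1024 for lncRNA:CR46006. asRNA:CR44029 and lncRNA:CR42549 were lower at -0.66 and -0.61, and lncRNA:CR44272 was higher at 0.85, with standard errors of 0.16, 0.08 and 0.18 per the authors' deposited table. lncRNA:CR44272 lies 334 bp from ACC on the same strand, which was higher at 0.33 (SE 0.11).

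Genes that host miRNAs were all higher where listed. Primary transcripts of miRNAs are cut in the nucleus by the Drosha and Pasha complex, and the hairpins are then trimmed by Dcr-1 and loaded onto AGO1. Of the 37 annotated lncRNA: and asRNA: genes whose span holds a miRNA gene on the same strand, 11 were listed (29.7%), and all 11 were higher. Of the 2410 that host no small RNA gene, 8.42% were listed. As to direction, 77.6% of all 214 listed noncoding genes were higher, and 42 of the 58 with a mean normalized count from 100 to 500. Of all genes tested, 28% were listed and 13.9% were listed as higher, so the share of hosts listed was close to that of all genes, while how many hosts were tested is unknown. The median mean normalized count was 252.8 in the 11 hosts and 71.6 in all 214 genes, so hosts were measured more precisely than most, and 26 hosts were not listed. None of these differences in share was tested.

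**Figure D3:**
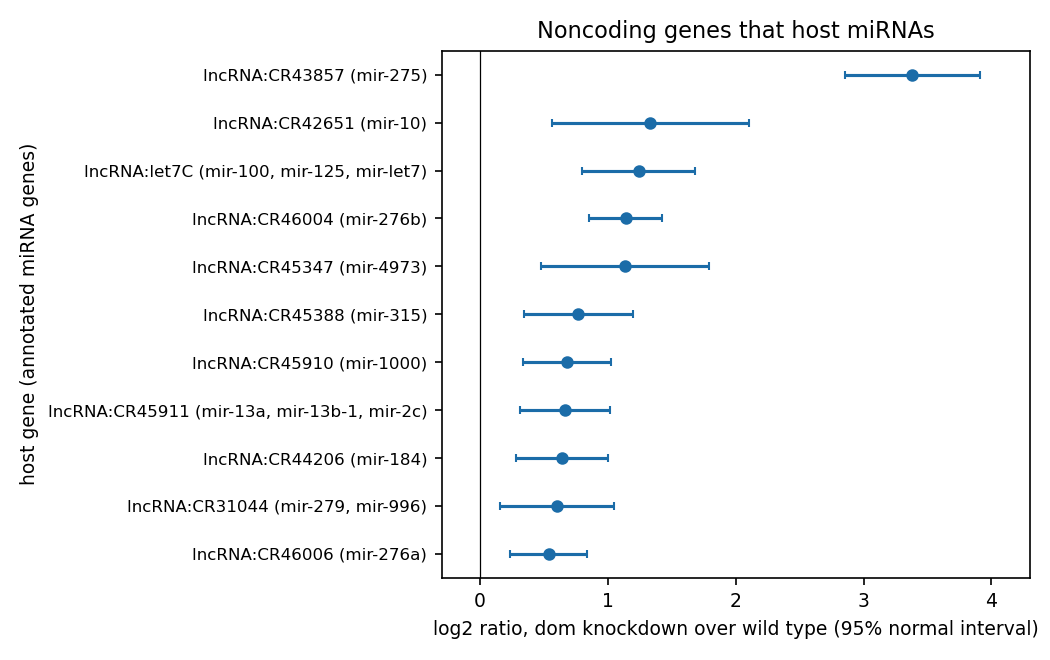
Log2 ratio of dom knockdown over wild type with 95% normal limits for the 11 listed noncoding genes that hold miRNA genes on their own strand, ordered from the highest at the top. All points and their limits lie above 0, from 0.54 for lncRNA:CR46006 to 3.38 for lncRNA:CR43857.

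The host of mir-275, lncRNA:CR43857 (FBgn0264439, 2L:7423820-7425932), stood apart at 10.4-fold higher (log2 3.38, SE 0.27, DESeq2 adjusted p 6.24e-34), with a mean normalized count of 201.6 per the authors' deposited table. lncRNA:let7C (FBgn0263049, 2L:18455717-18473132) is the precursor of miR-100, let-7 and miR-125, heterochronic miRNAs that mark the passage of neural cells to later fates. It was 2.36-fold higher, with a log2 ratio of 1.24 (SE 0.22, DESeq2 adjusted p 6.77e-07), at a mean normalized count of 109.7 per the authors' deposited table. Of its regulators and targets EcR, chinmo, ab and lin-28, the ecdysone receptor gene EcR was lower at a log2 ratio of -0.51 (SE 0.16) and the other 3 were not listed. lncRNA:CR42651, in the Hox cluster and host of mir-10, had 1.33 (SE 0.39) per the authors' deposited table. The neighbouring hosts of mir-276b and mir-276a, lncRNA:CR46004 and lncRNA:CR46006, lie 2901 bp apart on the same strand of 3L and had log2 ratios of 1.14 (SE 0.14) and 0.54 (SE 0.15). A RefSeq synonym of lncRNA:CR46006 is pri-mir-276b_mir-276a. Whether these neighbours are parts of the same transcript was not tested.

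Of the other hosts, lncRNA:CR45347 with mir-4973 had a log2 ratio of 1.13 (SE 0.34) and lncRNA:CR45388 with mir-315 had 0.77 (SE 0.22) per the authors' deposited table. The hosts of mir-1000, of mir-2c with mir-13a and mir-13b-1, of mir-184, and of mir-279 with mir-996 had log2 ratios of 0.68, 0.66, 0.64 and 0.60, with standard errors from 0.18 to 0.23. lncRNA:CR45388 shares 54.5% of its exon bases with asRNA:CR45912, itself higher at 1.84 (SE 0.51), and their reads may not be separable. Among the hosts that were not listed were those of bantam, mir-8, mir-9a, mir-14, mir-34 and mir-124. Of 6 genes of miRNA processing, Dcr-1, loqs and AGO1 were lower at log2 ratios of -0.25 (SE 0.08), -0.32 (SE 0.11) and -0.42 (SE 0.07) per the authors' deposited table, and drosha, pasha and Ranbp21 were not listed. These values are of long RNA, and no level of a mature miRNA was measured.

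By position, 55 of the 214 genes share exon bases with a gene on the opposite strand, 11 with a gene on the same strand, 29 lie in an intron of a gene on the opposite strand and 8 in an intron on the same strand. A further 31 start within 1 kb of the start of a gene that runs the other way, 2 overlap a gene in part with no shared exon base, and 78 are intergenic. The intergenic genes had the highest share of increases among the classes of more than 20 genes, 69 of 78, and the divergent genes and those with opposite exon overlap the lowest, 20 of 31 and 36 of 55. The classes also differ in abundance, with a median mean normalized count of 43.4 for intergenic genes, 82.1 for divergent genes and 113.4 for those with opposite exon overlap. The part of abundance in these shares was not tested.

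Of the 55 genes with exon bases shared on the opposite strand, the gene overlapped was listed for 23 and not listed for 32. Of the 23 pairs in which both genes passed, 19 had the same direction, 11 both higher and 8 both lower. Of other listed genes that share exon bases with a listed gene, on either strand, 161 of 256 (62.9%) had its direction, and the difference was not tested. Noncoding genes that overlap each other are counted from both sides. The labels do not say whether the library kit kept strand. The processing notes name HTSeq for counting reads, but its settings are not given. Whether reads of the pair were told apart over the shared bases is thus unknown.

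At the homeodomain gene hth, asRNA:CR44018 (3R:10639279-10645773) was lower at a log2 ratio of -0.78 (SE 0.22), and hth at -0.94 (SE 0.17) per the authors' deposited table. asRNA:CR44018 shares 3.23% of its exon bases with other genes. asRNA:CR44029 (4:879374-884752) and the synaptic vesicle priming gene unc-13 were lower at -0.66 (SE 0.16) and -0.57 (SE 0.15). asRNA:CR45129 and the cell recognition gene Dscam1 had -1.02 (SE 0.27) and -0.74 (SE 0.14) per the authors' deposited table, with 60.7% of the exon bases of the antisense gene shared. asRNA:CR44027 and the zinc finger gene dati, chosen after their values were seen, had -2.27 (SE 0.62) and -2.78 (SE 0.27). asRNA:CR43971 and CG45071 had -0.85 (SE 0.21) and -0.89 (SE 0.18). On the side of increases, asRNA:CR45621 and Fpgs1 had log2 ratios of 0.92 (SE 0.21) and 1.05 (SE 0.19) per the authors' deposited table, with 50.1% shared.

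The 4 pairs with opposite directions had the antisense gene higher and the other gene lower. These pairs, chosen after their values were seen, were asRNA:CR43889 at Mi-2, which encodes a CHD family remodeller, asRNA:CR45000 at the GABA receptor gene Lcch3, asRNA:CR46029 at the guanylyl cyclase gene Gyc89Db and asRNA:CR46093 at BRWD3. The antisense genes had log2 ratios of 1.84, 0.68, 0.70 and 0.90, with standard errors from 0.22 to 0.41, per the authors' deposited table. The genes they overlap had -0.45, -0.72, -0.94 and -0.36, with standard errors from 0.07 to 0.33. Thus the increases of these 4 antisense genes stood beside decreases on the other strand, at up to 61.7% shared exon bases. Some strongly changed antisense genes overlap a gene that was not listed. asRNA:CR43426 at CG32462 was the lowest asRNA: gene past a mean normalized count of 50, at -1.78 (SE 0.23), and asRNA:CR45009 at FucTC the highest, at 1.34 (SE 0.20), per the authors' deposited table.

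**Figure D4:**
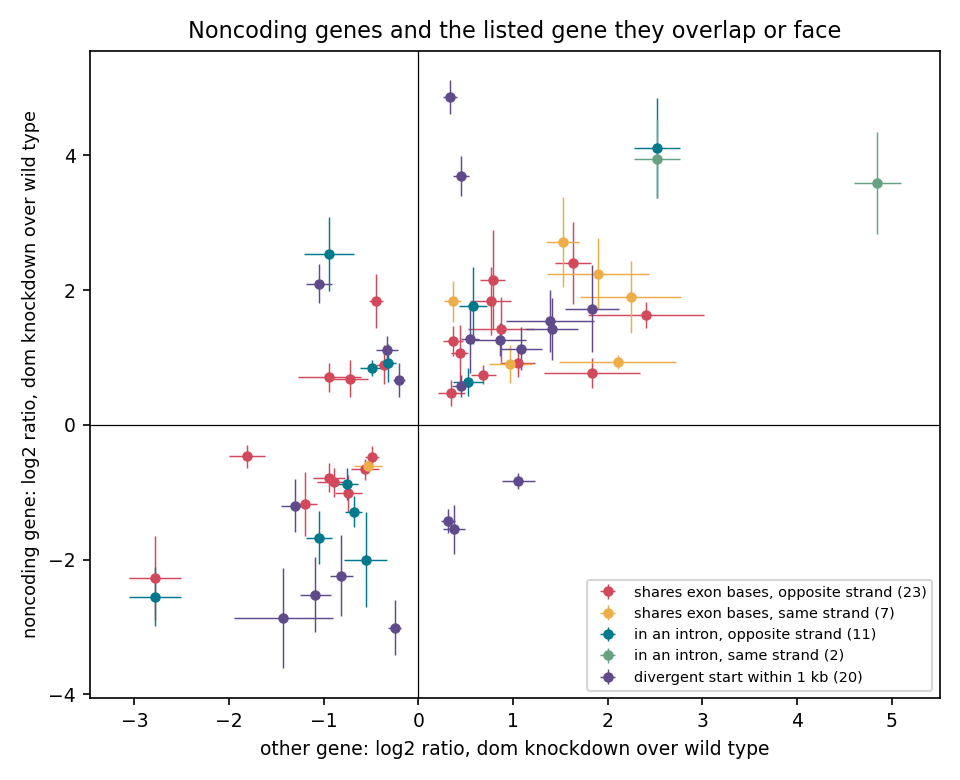
Log2 ratio of dom knockdown over wild type for a noncoding gene (vertical) against that of the listed gene it overlaps or faces (horizontal), with 1 standard error on each axis and colour for the kind of position. Of 63 pairs, 50 lie in the quadrants where both ratios have the same sign; the divergent pairs with the highest noncoding ratios, 4.86 and 3.69, have ratios of 0.34 and 0.45 for the other gene.

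Noncoding genes that share exon bases on the same strand had the direction of the listed gene they overlap in 7 of 7 pairs. For other listed genes that share exon bases on either strand it was 62.9%, and the difference was not tested. lncRNA:CR42549 and mura had log2 ratios of -0.61 (SE 0.08) and -0.54 (SE 0.15), and lncRNA:CR46268 and CG17490 had 0.93 (SE 0.11) and 2.10 (SE 0.61), per the authors' deposited table. lncRNA:CR46268 shares 55.5% of its exon bases with other genes, and lncRNA:CR42549 4.93%. lncRNA:CR45340 and dbr had 1.83 (SE 0.30) and 0.36 (SE 0.09).

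Noncoding genes within introns gave 10 of 13 pairs in the same direction. Of other listed genes that overlap a listed gene with no shared exon base, 118 of 157 (75.2%) had its direction, a share close to that. Reads of unspliced transcripts of the other gene may also count for an intronic noncoding gene, and this was not tested. In an intron of the chitin deacetylase gene Cda5, lncRNA:CR46254 was lower at -1.68 (SE 0.39) and Cda5 at -1.05 (SE 0.14) per the authors' deposited table. In an intron of the CTP synthase gene Ctps, lncRNA:CR43973 had -1.29 (SE 0.23) and Ctps had -0.68 (SE 0.09). lncRNA:CR44417 was higher at 0.84 (SE 0.12) while Mapmodulin, on the opposite strand, was lower at -0.49 (SE 0.12) per the authors' deposited table.

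Divergent genes start back to back with another gene. The gene facing them was listed for 20 of 31, with 9 pairs both higher, 5 both lower and 6 opposite. The direction was thus the same in 14 of 20 pairs. Of other listed genes with a listed neighbour within 10 kb, on either strand, 1183 of 1914 (61.8%) had its direction. The difference was not tested. Close pairs in the same direction included lncRNA:CR44023 and NfI, a nuclear factor gene, at -1.20 (SE 0.39) and -1.30 (SE 0.15), and lncRNA:CR43126 and the forkhead gene fkh at 0.57 (SE 0.16) and 0.45 (SE 0.10), per the authors' deposited table. The start sites are 154 and 784 bp apart. lncRNA:CR46204 and the Rel family gene dl, 130 bp apart, had 1.42 (SE 0.46) and 1.41 (SE 0.28). Among the opposite pairs, lncRNA:CR43685 was lower at -0.83 (SE 0.12) and e(y)2b higher at 1.05 (SE 0.18), with starts 228 bp apart, per the authors' deposited table. lncRNA:CR43242 and lncRNA:CR43837 were lower at -1.43 and -1.55, while Spf45 and the innexin gene Inx2 were higher at 0.31 and 0.38. Beside the same gene Cda5, lncRNA:CR45339, which starts 595 bp from it, was higher at 2.09 (SE 0.29). The pairs of fkh, dl and e(y)2b were chosen after their values were seen.

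Over all positions together, the overlapping and divergent genes included, noncoding genes shared the direction of the nearest listed gene more often than other listed genes did. Of the 214 genes, 164 had a listed gene that overlapped them or lay within 10 kb, and 128 of these (78.0%) had the same direction as it. For other listed genes it was 1462 of 2327 (62.8%). For neighbours that do not overlap, the counts were 89 of 118 (75.4%) for noncoding genes and 1183 of 1914 (61.8%) for other genes. With shared exon bases they were 28 of 32 (87.5%) and 161 of 256 (62.9%). For overlap with no shared exon base they were close, 11 of 14 (78.6%) and 118 of 157 (75.2%). The partner was itself a noncoding gene for 29 of the neighbours and 6 of the genes with shared exon bases. Such pairs can be counted from both sides. With a partner of another kind of gene, 96 of 129 had the same direction. The shares were 95 of 122 for noncoding genes that were higher and 33 of 42 for those that were lower, against 59.8% and 65.4% of other listed genes. For the neighbours that do not overlap, 48 of 66 on the same strand and 41 of 52 on the opposite strand agreed in sign. Across the 103 pairs with no shared exon base and a partner of another kind of gene, Pearson's r of the 2 log2 ratios was 0.62 and Spearman's rho 0.56. These pairs are neighbours from the same libraries, some share a partner, all passed the same threshold, and the difference in share was not tested.

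Noncoding genes also lay near each other. There were 22 groups of 2 to 4 listed noncoding genes less than 10 kb apart, with 48 genes in all. In 18 groups all members were higher, in 2 all were lower and in 2 the directions were mixed. Of all 214 noncoding genes 77.6% were higher, and other listed genes were not grouped in this way. Some groups hold genes that share exon bases, such as lncRNA:CR44595 and lncRNA:CR44596, whose reads may not be separable. In the group of 4, on 2L:12570672-12583550, lncRNA:CR44598, lncRNA:CR44597, lncRNA:CR44596 and lncRNA:CR44595 had log2 ratios of 1.12, 1.59, 1.90 and 2.24 per the authors' deposited table. lncRNA:CR45645 and lncRNA:CR45644 on 3R had 2.82 and 2.69, and lncRNA:CR45181 and lncRNA:CR46252, which overlap on opposite strands of 3L, had 1.63 and 2.40. The groups were chosen after their values were seen.

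The chromosomes differed mainly in the share listed and, for chromosome 4, in direction. On chromosome 4, 9 of 24 annotated genes with these prefixes were listed (37.5%), and 6 of the 9 were lower, against 8.45% listed on the other chromosomes. On the X 39 of 310 were listed (12.6%), 33 of them higher, and on the major autosome arms the share listed was between 7.14% and 8.36%, with 73.9% to 84.1% of the listed genes higher. Other listed genes of chromosome 4 were lower in 20 of 32 cases. None of these differences was tested, and the shares are not matched for abundance, with which direction moved. Most of the lower noncoding genes on chromosome 4 overlap or face a listed gene that was also lower. On chromosome 4, dati has a pair of listed noncoding genes, asRNA:CR44027 named above and the intronic lncRNA:CR45125 at -2.55 (SE 0.44) per the authors' deposited table. The abundant lncRNA:CR44024 (4:427331-431769) was lower at -1.46 (SE 0.29) and asRNA:CR45126 at Taf3 at -0.48 (SE 0.16), beside -0.49 (SE 0.07) for Taf3. The 3 higher genes were lncRNA:CR44440, lncRNA:CR44441 and asRNA:CR43957, at 1.36, 0.88 and 0.45. These, lncRNA:CR45125 and asRNA:CR45126 were chosen after their values were seen.

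**Figure D5:**
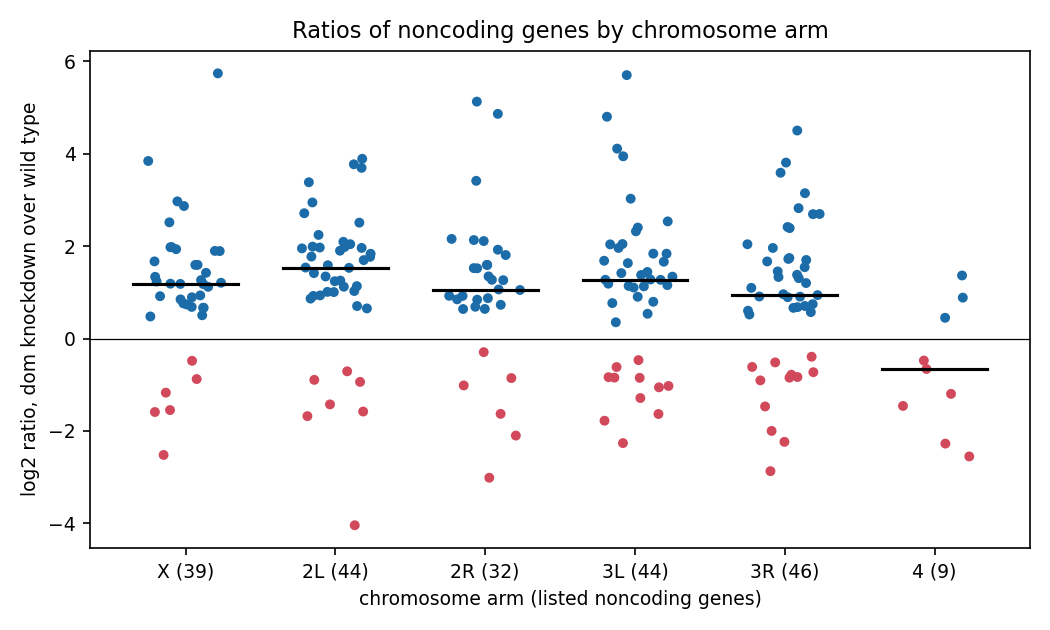
Log2 ratio of dom knockdown over wild type for each of the 214 listed noncoding genes by chromosome arm, with genes higher in blue, lower in red and the median of each arm as a black bar; the number of genes is in the axis label. The median lies between 0.95 and 1.53 on 5 arms and at -0.66 on chromosome 4, where 9 genes were listed.

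Of noncoding genes with a given name, only lncRNA:let7C and lncRNA:mimi were listed. Examples that were not listed were roX1, roX2, the stress-induced Hsromega and cherub, which is inherited by neuroblasts in asymmetric division. Further examples were bxd, iab4 and iab8 of the bithorax complex, and the piRNA cluster transcript flam. These 8 are examples, so no share is drawn from them. Of all annotated genes with these prefixes 8.73% were listed. Of 8 dosage compensation genes, which include roX1 and roX2, msl-3 and mof were slightly lower, at log2 ratios of -0.28 (SE 0.08) and -0.21 (SE 0.08), and 6 were not listed. Of the bithorax region, Ubx was lower at -1.06 (SE 0.29) and Abd-B higher at 0.73 (SE 0.19), with abd-A not listed, per the authors' deposited table. Of 5 genes for partners of cherub and Staufen particles, Syp and stau were lower at -0.40 (SE 0.15) and -0.44 (SE 0.10), and Imp, brat and mira were not listed.

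Genes for the decay and ending of noncoding transcripts are read against the 28% of all genes tested that were listed. Of 12 genes of the nuclear RNA exosome and its cofactors 1 was, Zcchc7, lower at a log2 ratio of -0.36 (SE 0.08) per the authors' deposited table. Of 14 Integrator genes, of which 11 symbols were matched, IntS1 and IntS10 were lower at -0.21 and -0.50 and IntS11 and IntS12 higher at 0.30 and 0.25, with standard errors from 0.07 to 0.11. Of 6 genes of nonsense-mediated decay, of which 5 symbols were matched, Smg5 was lower at -0.23 (SE 0.08). Of 7 omega speckle protein genes, Saf-B was lower at -0.31 (SE 0.10) per the authors' deposited table.

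Some markers of cell types were listed as well, beside 13.9% of all genes tested listed as higher and 14.2% as lower. Of 7 neuroblast markers, wor and nab were higher and grh lower, at log2 ratios of 0.61, 0.46 and -0.79, while ase, klu, dpn and mira were not listed. Of 9 neuron markers 4 were listed, all lower, from -2.71 for Rbp9 to -0.60 for Syt1, and of 6 glia markers 4 were listed, all higher, from 0.56 for repo to 1.94 for alrm, per the authors' deposited table. Of 6 hemocyte markers 4 were lower, from -4.77 for PPO1 to -0.80 for Hml. Of 3 fat body and 3 muscle markers, apolpp and Act57B were higher at 1.14 and 0.98. The part of these cell types in the changes of noncoding genes was not tested.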

How the data were processed

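Cells were sorted from brains of larvae of 2 genotypes, 3 libraries each, and grouped by their titles. Per the labels' protocols, Illumina's TruSeq kit for RNA was used. The submitters' processing notes name HTSeq 0.6.1, STAR 2.3.0e, DESeq2, FastQC 0.11.2, SAMtools 0.1.19 and the build dm6. The sources used here do not give the annotation release, strand setting, filters or any shrinkage of ratios. Per the file headers, the authors deposited the mean normalized count over all libraries (a signal), a log2 ratio (control named before knockdown), its error on the same log2 scale, the Wald statistic (a score equal to ratio over error), and p-values before and after adjustment. Depth per library is unknown, and precision rests on the deposited standard errors, which ran from 0.08 to 0.79 for the 214 genes.

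The table was decoded from UTF-7 and each sign was turned, to knockdown over wild type. The number of tests was recovered from p, rank and adjusted p (within 0.01 in 2883 genes). Symbols matched 3264 of 3326 IDs, so the count of noncoding genes is a minimum. Positions came from Ensembl release 115 (BDGP6, dm6 coordinates, 1-based), which held all 214. Transposable elements, small RNA genes and annotated fragments of miRNA precursors were not counted as overlapping genes. Intervals are 95% normal limits. No test of gene lists was run. The position and number-of-tests steps were tested on simulated data, and recovered 6 of 6 position classes and 5 of 5 tables. Python 3.11.15, pandas 2.3.3, scipy 1.17.1 and matplotlib 3.10.9 were used.

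The noncoding genes, lists and rules were chosen with earlier results of these data known. Named were genes with a given name, the 15 asRNA: genes with the smallest adjusted p and the 12 largest changes each way (both past a mean normalized count of 50), the 10 smallest adjusted p, the 10 highest means, miRNA hosts, 4 per position class with their partners, and listed genes of the lists. Alternatives were a stricter threshold, 2-fold changes, higher means, no shared exon bases, shifted ratios, the biotype, and other windows.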

Additional observations from a re-analysis of the deposited data

How the results depend on the processing

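The majority of increases held under every alternative tried, with 71.5% to 82.4% of the listed noncoding genes higher. At mean normalized counts from 50 up, 123 of the 214 genes remained, 88 of them higher. The lower genes numbered 26 with changes of at least 2-fold and 28 with no shared exon base, against 48. At an adjusted p under 0.01, 112 were higher and 35 lower. With all log2 ratios shifted by 0.1, as another centring could do, 166 were higher and 41 lower (up), or 140 and 48 (down). Only listed genes could be shifted, so a shift could remove genes but add none. Every named ratio exceeded 0.1 in size, so no sign could change. Of the named genes, lncRNA:mimi (-0.29 when shifted up) and lncRNA:CR31044, host of mir-279 (0.50 when shifted down), no longer passed. With at least 50% of exon bases required, 16 genes counted as opposite exon overlap in place of 55 and 1 as same-strand overlap in place of 11, and 19 of 31 divergent genes had starts within 500 bases. Same-direction neighbours were 75.8% without shared exon bases, with noncoding partners included.

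No paired analysis was possible because no values per library were used here, and leaving out single libraries, other size factors, pseudocounts and a fit without the authors' own filter were not run, since the table gives only means over libraries. Rare genes are listed only at large ratios, so small changes of rare noncoding genes were not detectable at this depth.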

Other observations

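Gene structure did not go with direction in a plain way. Of the 106 noncoding genes with a single exon 84 were higher, and of those with more than 1 exon 82 were while 26 were lower. Exon length ran from 207 to 10235 bp, with a median of 954 bp, against 2418 bp for other listed genes.

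Exon bases inside an annotated transposable element were present in 16 noncoding genes, 8 higher and 8 lower, with a median log2 ratio of 0.30 and a median mean normalized count of 147.1. None had 50% or more of its exon bases in such an element. The genes with no listed gene within 10 kb numbered 50, of which 44 were higher, with a median log2 ratio of 1.23. None of these counts was tested.

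The 3 annotated noncoding genes that host snoRNAs, lncRNA:CR31647, lncRNA:CR42491 and lncRNA:CR45184, were not listed.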
